A study of Mus musculus with 16 samples.

Results

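Gja1, Gja4, Gja5 and Gjc1, which encode connexin subunits of gap junctions, and Bmx, which encodes a tyrosine kinase of the Tec family, were followed through all 16 RNA-seq libraries of endothelial cells (ECs) sorted from mouse bone. These 5 genes were taken by name from 38926 gene names in the tables of regional and Lats2 ECs, and by Ensembl identifier from 21603 genes in the Yap1/Taz libraries. All mice had a C57BL/6 background. The mpECs (3 libraries) came from the metaphysis, the region next to the growth plate, and the bmECs (3 libraries) from the marrow of the bone shaft. Both are labelled wildtype, and the methods state that they were sorted by the Cdh5-mT/nG reporter, a red and green fluorescent marker driven by the Cdh5 gene, at an age of 3 weeks. The control (3 libraries) and ECKO (3 libraries) mice carried Yap1flx/flx and Wwtr1flx/flx alleles, were negative or positive for Cdh5CreERT2, a tamoxifen-inducible Cre active in ECs, and were taken at postnatal day 21. Wwtr1 encodes Taz. The Lats2 Cont (2 libraries) and Lats2 cKO (2 libraries) mice carried Lats2flx/flx alleles without and with the same Cre. The methods give an age of 3 weeks for these ECs as well, and state that pups received tamoxifen to induce Cre recombination. The labels do not say how many animals went into a library, so p-values measure the spread between libraries, which may in part be technical.

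Connexins assemble into channels that join the cytoplasm of neighboring cells and let ions and small messengers pass. In blood vessels, Gja4 and Gja5 are well known from arterial endothelium, where they carry signals along the vessel wall. Gja1 is used by many cell types, among them ECs at sites of disturbed flow, smooth muscle cells, osteoblasts and marrow stromal cells. Gjc1 is best known from smooth muscle and the early heart, and Bmx from the endothelium of arteries and the endocardium. Bone has arteries, metaphyseal capillaries that end near the growth plate, and wide sinusoidal vessels in the marrow.

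Sequences upstream of 4 of the genes are shown because Gja4, Gja5 and Bmx were all lower in bmECs while Gja1 was not. They are the 250 bases before the RefSeq start of each gene on GRCm38.p6, read 5′ to 3′ on the strand of the gene, at chr4:127314040-127314289 (minus strand) for Gja4, chr3:97032152-97032401 (plus strand) for Gja5, chrX:164258194-164258443 (minus strand) for Bmx and chr10:56377050-56377299 (plus strand) for Gja1. None of these bases lies in an annotated exon of GENCODE release M21. The RefSeq start of Gja5 lies inside the longer GENCODE gene, which begins further upstream. Capitals mark matches to the cores described next and the longest run of letters that Gja4 and Gja5 share.
Gja4: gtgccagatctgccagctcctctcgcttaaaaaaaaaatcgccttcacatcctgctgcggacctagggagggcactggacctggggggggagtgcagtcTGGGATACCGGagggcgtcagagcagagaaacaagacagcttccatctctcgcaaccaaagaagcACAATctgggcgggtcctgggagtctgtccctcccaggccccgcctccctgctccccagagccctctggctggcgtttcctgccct
Gja5: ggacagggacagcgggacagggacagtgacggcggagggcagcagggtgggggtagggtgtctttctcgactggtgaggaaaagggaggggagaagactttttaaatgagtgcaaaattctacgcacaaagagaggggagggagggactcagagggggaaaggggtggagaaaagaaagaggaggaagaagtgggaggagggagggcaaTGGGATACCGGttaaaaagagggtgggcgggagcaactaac
Bmx: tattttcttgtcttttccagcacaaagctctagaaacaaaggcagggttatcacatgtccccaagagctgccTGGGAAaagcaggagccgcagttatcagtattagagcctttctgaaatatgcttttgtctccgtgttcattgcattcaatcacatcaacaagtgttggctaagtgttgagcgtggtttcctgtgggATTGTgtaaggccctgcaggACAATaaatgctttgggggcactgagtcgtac
Gja1: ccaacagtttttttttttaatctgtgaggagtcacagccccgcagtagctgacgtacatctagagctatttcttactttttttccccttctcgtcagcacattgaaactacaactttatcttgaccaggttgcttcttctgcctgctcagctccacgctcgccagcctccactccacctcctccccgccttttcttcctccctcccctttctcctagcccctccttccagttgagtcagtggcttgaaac
Both strands were searched for the core TGGGAA of RBPJ, the DNA-binding partner of Notch receptors, GGAATG of the TEAD factors that Yap1 and Taz bind, ACAAT of SOX factors and ACGTG of hypoxia-inducible factors. Bmx held 1 RBPJ core, at bases -178 to -173 before the start, and 2 SOX cores, at -52 to -48 and -32 to -28. Gja4 held 1 SOX core at -86 to -82. The windows of Gja5 and Gja1 held none of the cores searched, and no TEAD or hypoxia core stood in any of these windows. Of 27025 promoter windows of the same length, 21.5% held the RBPJ core, 12.6% the TEAD core, 28.3% the SOX core and 16.6% the hypoxia core. Gja4 and Gja5 shared a run of 11 letters, TGGGATACCGG, on the same strand, beginning at base -151 of Gja4 and base -41 of Gja5. It stood in 3 of the 27025 windows, the third being that of Vps4a. Gja1 shared longer runs, of 12 letters, with Gja4 and with Gja5, which stood in 345 and 45 of the windows. The run was looked for after the values of the genes had been seen, and it is given as a description of these letters.

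The libraries were checked first. All 10 pan-endothelial markers, Cdh5 among them, were measured in each comparison. Their summed level was 1417 to 1770 FPKM in mpECs and 1807 to 1908 FPKM in bmECs. It was 602.8 to 651.7 FPKM in control libraries and 772.4 to 903.2 FPKM in those labelled ECKO. The regional groups did not overlap in this sum, nor did the Yap1/Taz groups. In Lats2 Cont it was 2726 to 3054 FPKM and in Lats2 cKO 2896 to 2956 FPKM. FPKM counts sequenced fragments relative to the length of the gene and the size of the library. Blood cell genes were also present, led by the hemoglobin gene Hbb-bs with 10589 to 22050.5 FPKM in regional ECs. Reads recovered from the FPKM values came to 4728495 to 14741910 per library. Wwtr1 was at 10.01, 9.88 and 10.3 FPKM in the control libraries and at 15.3, 19.6 and 19.5 FPKM in those labelled ECKO, a log2 fold change (log2FC) of 0.78 (SE 0.12, adjusted p = 0.0272). Yap1 was at 1.07, 1.62 and 0.995 FPKM against 1.43, 1.03 and 0.989 (log2FC -0.044, SE 0.18, adjusted p = 0.934). The values of both targeted genes therefore went against the label or did not bear it out. They cover whole genes and do not test a deleted exon, and the libraries are called by their label throughout. By quantitative PCR, the paper reports lower Yap1 and Wwtr1 transcripts in freshly isolated mutant bone ECs. It also reports weaker Yap1 staining in mutant bone vessels. Lats2 was at 23.4 and 24.0 FPKM in the Lats2 Cont libraries and 19.2 and 19.2 in the Lats2 cKO libraries, a log2FC of -0.29 (SE 0.11, adjusted p = 0.125).

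**Figure D1:**
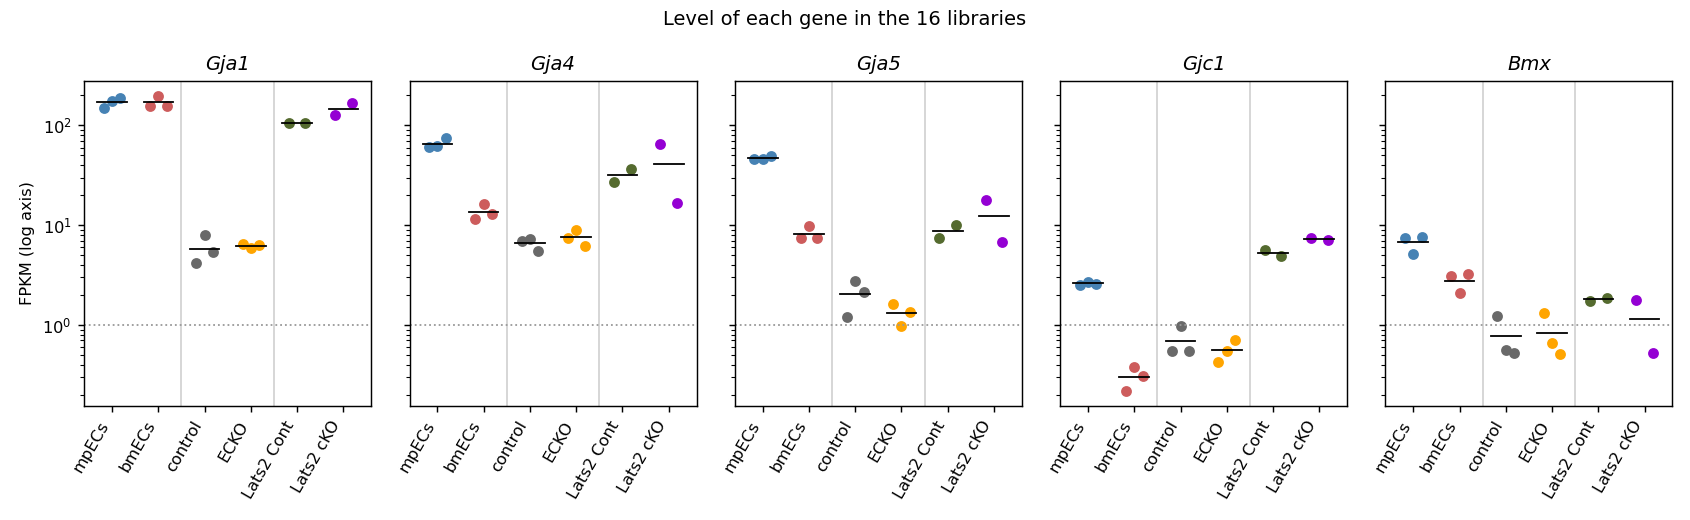
FPKM of Gja1, Gja4, Gja5, Gjc1 and Bmx (y axis, logarithmic) in each of the 16 libraries, grouped on the x axis, with 1 point per library and a bar at the group mean. Grey lines part the comparisons, which were normalized separately, and the dotted line marks 1 FPKM. Gja4 and Gja5 sit lower in every bmEC library than in any mpEC library, and Gja1 is at 4.14 to 8.0 FPKM in the control and ECKO libraries and over 100 FPKM in the others.

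Whether ECs of the metaphysis and the marrow differ in gap junction genes was addressed by comparing mpECs with bmECs. Gja4, Gja5, Gjc1 and Bmx were lower in bmECs, and Gja1, the most abundant of them, showed no difference beyond the spread between libraries. Thus 4 of the 5 genes were called, each lower, where 10.5% of the 11422 genes tested were called lower and 23.5% in either direction. The same 4 genes had groups that did not overlap, which was so for 41.3% of all genes tested. Values were tested on the log2(FPKM + 1) scale, which understates changes of genes with low values, and a gene was called at a Benjamini-Hochberg adjusted p under 0.05. In bulk RNA, fewer cells of a type and less RNA per cell cannot be told apart.

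Gja4 (GRCm38 chr4:127311421-127314039, minus strand) was at 60.3, 61.9 and 74.6 FPKM in mpECs and at 11.5, 16.3 and 13.1 FPKM in bmECs. The lowest mpEC library was over the highest bmEC library. The mean fell 4.82-fold, from 65.6 ± 7.85 to 13.6 ± 2.47 FPKM (SD, n = 3), with a log2FC of -2.20 (SE 0.14, adjusted p = 5.22e-05).

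Gja5 (chr3:96904693-97077416, plus strand) shares 2.9% of its exon bases with genes on the other strand. It was at 46.5, 45.7 and 49.0 FPKM in mpECs and at 7.41, 9.85 and 7.43 FPKM in bmECs. Again no bmEC library reached the mpEC range. The mean fell 5.72-fold, from 47.1 ± 1.76 to 8.23 ± 1.40 FPKM, with a log2FC of -2.39 (SE 0.12, adjusted p = 2.00e-05).

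Bmx (chrX:164192842-164258193, minus strand) was the member with the smallest called change. It was at 7.46, 5.19 and 7.53 FPKM in mpECs and at 3.07, 2.09 and 3.21 FPKM in bmECs. The second library was the lowest of its group in both regions, and the groups did not overlap. The mean fell 2.41-fold, with a log2FC of -1.03 (SE 0.18, adjusted p = 0.00470).

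Gjc1 (chr11:102799579-102819700, minus strand) was at 2.54, 2.68 and 2.59 FPKM in mpECs and at 0.219, 0.380 and 0.306 FPKM in bmECs. The bmEC values rest on 9 to 18 reads per library and the mpEC values on 126 to 157. The log2FC was -1.47 (SE 0.13, adjusted p = 0.000192). Gjc1 passed the minimum of 1 FPKM only through the mpEC libraries, which fixed the direction of its difference but not its call. Its direction therefore adds little to the count of lower genes. With no filter on low values, limma called it as well (adjusted p = 0.00109).

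Gja1 (chr10:56377330-56402513, plus strand) was at 150.0, 174.2 and 186.3 FPKM in mpECs and at 157.9, 197.9 and 156.4 FPKM in bmECs. The ranges of the regions overlapped. The log2FC was 0.0016 (SE 0.12, 95% confidence interval -0.28 to 0.29, adjusted p = 0.994), and its sign turned under other scalings.

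**Figure D2:**
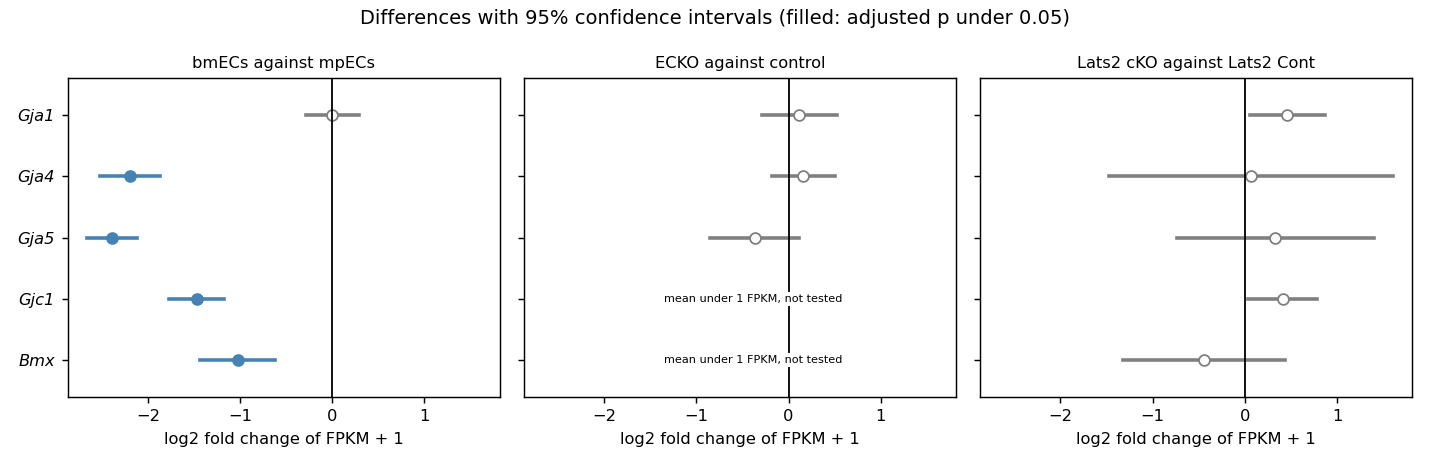
Log2 fold change of FPKM + 1 (x axis) with 95% confidence interval for each gene (y axis) in the comparisons of bmECs with mpECs, ECKO with control and Lats2 cKO with Lats2 Cont libraries. Filled points passed an adjusted p of 0.05. Only the panel of bmECs against mpECs has filled points, at -2.20, -2.39, -1.47 and -1.03, and the interval of Gja4 is widest in the Lats2 panel.

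The order of the levels was the same in both regions, namely Gja1, Gja4, Gja5, Bmx and Gjc1, with no overlap between neighbors, while the distances between them changed. Per library, Gja1 was 2.49 to 2.81 times as abundant as Gja4 in mpECs and 12.0 to 13.8 times in bmECs. The ratio of Gja4 to Gja5 was 1.30 to 1.52 in mpECs and 1.55 to 1.76 in bmECs. For both ratios a two-sided exact permutation test gave p = 0.1 (n = 3 per group, adjusted p = 0.1 over 2 ratios), the smallest that 3 against 3 allows. These ratios do not depend on how libraries are scaled to each other.

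Set against the whole connexin family, the summed FPKM of 20 connexin genes was 260.8 to 315.3 in mpECs and 180.0 to 228.1 in bmECs. Gja1 made up 57.5% to 60.9% of it in mpECs and 86.7% to 87.3% in bmECs. The share of Gja4 was 21.7% to 23.7% in mpECs and 6.34% to 7.25% in bmECs, and that of Gja5 was 15.6% to 17.8% and 4.09% to 4.32%. Gjc1 held at most 0.974% in either region. The 16 remaining connexins together held 0.469% to 0.874% in mpECs and 1.57% to 2.19% in bmECs, and 1 of them passed the filter on low values. This was Gjb2, a connexin of epithelia and the inner ear, at 0.303, 0.125 and 1.75 FPKM in mpECs and 1.21, 2.15 and 1.34 FPKM in bmECs (log2FC 0.67, SE 0.33, adjusted p = 0.188).

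**Figure D3:**
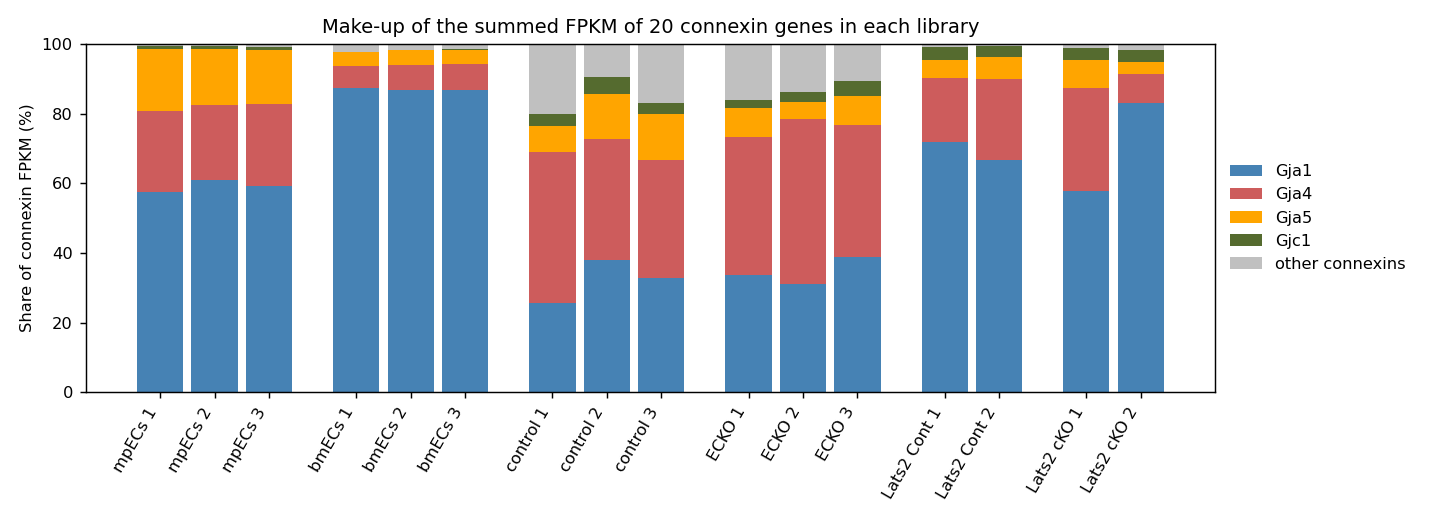
Share of the summed FPKM of 20 connexin genes (y axis, percent) taken by Gja1, Gja4, Gja5, Gjc1 and the other connexins in each of the 16 libraries (x axis). Gja1 takes 57.5% to 60.9% in mpECs and 86.7% to 87.3% in bmECs, and 57.8% and 83.0% in the 2 Lats2 cKO libraries.

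Related genes were read from fixed lists. Of the pannexins, which form channels in single membranes, Panx3, known from osteoblasts and chondrocytes, was at 4.66, 3.20 and 2.17 FPKM in mpECs and listed at 0 in all bmEC libraries (adjusted p = 0.000412), so that, like Gjc1, it passed the filter through mpECs alone. Panx1, the widely expressed pannexin, was at 0.999, 0.836 and 0.893 FPKM in mpECs and 1.18, 2.29 and 2.66 FPKM in bmECs, with groups apart but an adjusted p of 0.0573. Of the genes for proteins that bind connexins, 1 of 6 tested was called, the actin-binding drebrin gene Dbn1, which fell (log2FC -1.36, SE 0.22, adjusted p = 0.00356). The median of these 6 genes was -0.44, beside -0.00068 over all genes tested. Of the other Tec kinases, Btk, the kinase of B cells, was tested, at 8.66, 4.87 and 6.28 FPKM in mpECs and 5.33, 2.95 and 5.02 FPKM in bmECs (log2FC -0.49, adjusted p = 0.176).

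Arterial genes other than Gja4, Gja5 and Bmx were called lower more often than higher, while 10.5% of all genes tested were called lower and 13% higher. Of 17 tested, 10 were called lower in bmECs, 1 higher and 6 were not called, with a median log2FC of -0.78. Of the 10 genes called lower, Jag2, Unc5b and Notch4 passed the filter through mpECs alone, which fixed the direction of their difference. The largest called changes were those of Vegfc, a lymphatic and venous growth factor (-2.14), Stmn2, a microtubule regulator (-2.07), Gkn3, a gene of brain arterial ECs (2.00), Efnb2, the ephrin ligand of arteries (-1.95), and Hey1, a Notch target (-1.73), with adjusted p from 6.72e-05 to 0.000885. Gkn3 went the other way, from 1.54 ± 0.306 to 9.12 ± 0.920 FPKM. Efnb2 was at 9.90, 12.4 and 15.2 FPKM in mpECs and 2.11, 2.62 and 2.67 FPKM in bmECs. Each Gja5 level was 3.22 to 4.69 times the Efnb2 level in mpECs and 2.78 to 3.77 times in bmECs, so this ratio overlapped between the regions.

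Venous genes were mixed, with 2 of 5 called higher, 1 lower and a median log2FC of -0.054. Selp, the P-selectin gene, and Nr2f2, a transcription factor of veins, rose, with log2FC 1.37 and 0.78 (adjusted p = 0.000689 and 0.00362). Aplnr, the apelin receptor gene of veins and sprouting capillaries, was at 291.1, 451.8 and 402.3 FPKM in mpECs and 75.4, 106.4 and 95.4 FPKM in bmECs. It fell with log2FC -2.03 (SE 0.18, adjusted p = 0.000225), which is within the confidence interval of Gja4 (-2.52 to -1.87).

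**Figure D4:**
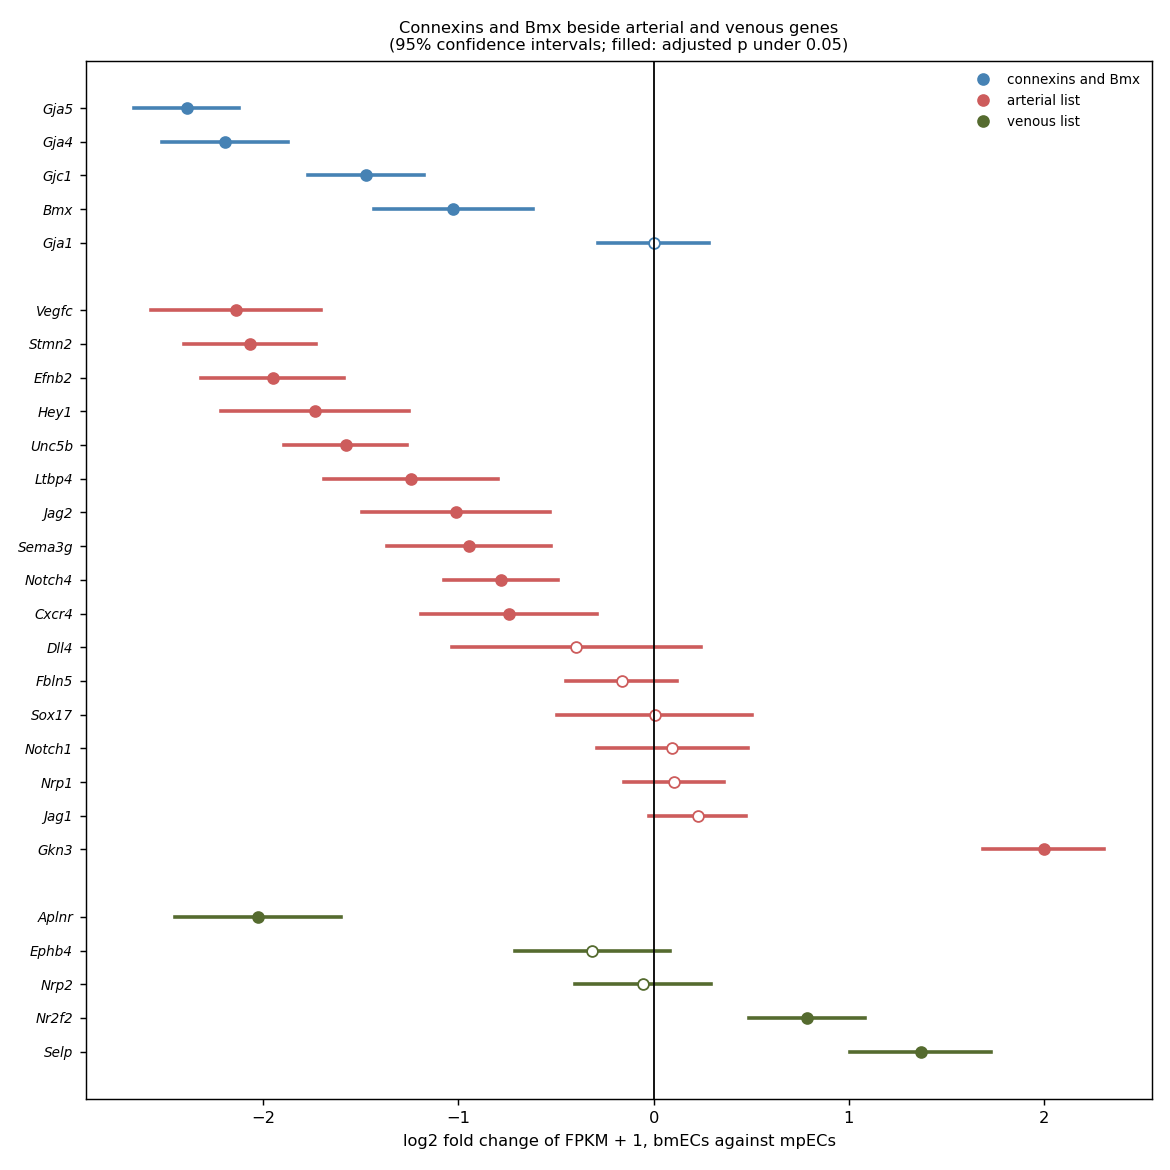
Log2 fold change of FPKM + 1 with 95% confidence interval (x axis) for bmECs against mpECs, for the connexins and Bmx, the tested genes of the arterial list and those of the venous list (y axis). Filled points passed an adjusted p of 0.05. Gja5 and Gja4 lie at -2.39 and -2.20 beside Vegfc at -2.14, while Gkn3 lies at 2.00 and Gja1 at 0.0016.

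Genes of other cell types moved with this contrast. Of 8 osteoblast markers tested, 6 were lower in bmECs, 2 of which passed the filter on low values through mpECs alone. The 11 listed osteoblast genes summed to 260.5 to 1001 FPKM in mpECs and 45.6 to 60.9 FPKM in bmECs. Bglap, the osteocalcin gene, was at 49.2 to 321.6 FPKM in mpECs and 0.962 to 2.95 FPKM in bmECs, while Ibsp, the bone sialoprotein gene, made up most of the bmEC sum at 38.4 to 46.8 FPKM and was not called (log2FC -0.33, adjusted p = 0.565). All 4 chondrocyte markers tested were lower, and as each passed the filter through mpECs alone, the direction of each was fixed by the filter. The 8 listed chondrocyte genes summed to 24.2 to 26.8 FPKM in mpECs and 0.0682 to 0.182 FPKM in bmECs, with Col2a1 and the untested Col9a1 and Matn1 listed at 0 in every bmEC library. Of 6 mural cell markers tested, Kcnj8 and Abcc9, which encode the subunits of a potassium channel of pericytes, were higher in bmECs, and the median log2FC was 0.065. The 12 listed mural genes summed to 207.9 to 301.3 FPKM in mpECs and 636.3 to 662.1 FPKM in bmECs, most of it from Kcnj8 and Abcc9. Rgs5, Acta2 and Tagln had log2FCs of -1.52, -0.86 and -0.17 and were not called. Among the pan-endothelial markers, Erg and Cldn5 were higher and Pecam1 and Tie1 lower, and 6 of 10 were not called. Of the marrow stromal markers 2 of 4 were higher and 1 lower, and the myeloid list had 1 of 8 lower, while none of the 5 megakaryocyte, 7 erythroid and 6 B-cell markers tested was called. The part of these cell types in the values of Gja1, Gja4, Gja5, Gjc1 and Bmx was not tested. The calls of Gja4, Gja5, Gjc1 and Bmx held in each alternative fit in which the gene was tested, with each library left out in turn among them.

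In the Yap1/Taz libraries the question was what changes in ECs when both genes are targeted. None of the members tested was called in the libraries labelled ECKO, where 1.31% of 11320 genes were called. That background rests on single libraries. The 148 genes called became 1 without ECKO replicate 2, 1 without ECKO replicate 3 and 14 without control replicate 3. They became 20 without control replicate 2, 114 without control replicate 1 and 293 without ECKO replicate 1. With limma, 2023 genes had an unadjusted p under 0.05, and limma-voom on recovered reads also called none of the members. Only Gja1, Gja4 and Gja5 reached a mean of 1 FPKM, so 3 of the 5 members were tested.

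Gja4 was at 7.00, 7.33 and 5.56 FPKM in the control libraries and at 7.50, 9.03 and 6.16 FPKM in those labelled ECKO. The ranges overlapped, and the log2FC was 0.16 (SE 0.15, 95% confidence interval -0.18 to 0.50, adjusted p = 0.624). Gja1 was at 4.14, 8.0 and 5.36 FPKM and at 6.41, 5.95 and 6.29 FPKM. The libraries labelled ECKO lay within the wide control range (log2FC 0.12, SE 0.18, 95% confidence interval -0.29 to 0.53, adjusted p = 0.792).

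Gja5 was at 1.20, 2.75 and 2.14 FPKM in control libraries and at 1.62, 0.972 and 1.33 FPKM in those labelled ECKO. Its log2FC was -0.37 (SE 0.22, 95% confidence interval -0.85 to 0.12, adjusted p = 0.413). When libraries were scaled to the 10 pan-endothelial markers, which shifted all genes by -0.36 on the log2 scale in this comparison, Gja5 was called at -0.73 (adjusted p = 0.0291), as were 5162 of all genes. As deposited, the values gave no call.

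Gjc1 was at 0.547, 0.987 and 0.549 FPKM against 0.428, 0.547 and 0.704 FPKM, and Bmx at 1.23, 0.564 and 0.522 FPKM against 1.32, 0.664 and 0.512 FPKM. Both rest on 9 to 34 reads per library. With no filter on low values their log2FCs were -0.11 (adjusted p = 0.743) and 0.046 (adjusted p = 0.946).

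Around these genes, none of the 16 arterial, 7 venous and 6 connexin-binding genes tested was called. Their median log2FCs were 0.36, 0.34 and 0.18, beside -0.0047 over all genes and 0.28 over the 10 pan-endothelial markers. Panx1 had a log2FC of 0.31 (adjusted p = 0.438), and the Tec kinases Btk and Tec had -0.44 and -0.23 (adjusted p = 0.0654 and 0.343). Among the markers, Cldn5 of the endothelial list rose (log2FC 1.09, adjusted p = 0.0117), and 3 of 7 osteoblast markers were lower, 2 of them through the filter in control libraries alone. The 11 listed osteoblast genes summed to 42.3 to 61.8 FPKM in control libraries and 13.3 to 31.4 FPKM in those labelled ECKO. Ppbp of the megakaryocyte list was higher, and no mural (5 tested), chondrocyte (1), stromal (5), erythroid (7), myeloid (9) or B-cell (6) marker was called. Their part in the values of Gja1, Gja4 and Gja5 was not tested.

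The level of Gja1 set these 6 libraries apart from the other 10. Relative to Cdh5 of the same library, Gja1 stood at 3.95% to 7.23% in the control and at 4.40% to 5.70% in the ECKO libraries. The same measure was 85.8% to 123.6% in mpECs and bmECs together and 39.1% to 60.1% in the Lats2 libraries. Gja4 relative to Cdh5 was at 4.31% to 6.92% in the Yap1/Taz libraries, 6.95% to 10.2% in bmECs, 30.5% to 40.6% in mpECs, 11.8% to 13.7% in Lats2 Cont and 6.04% to 23.4% in Lats2 cKO. In the control and ECKO libraries Gja4 and Gja1 overlapped as the most abundant members, the summed connexin level was 16.2 to 21.1 FPKM, and Gja1 held 25.6% to 38.8% of it. The tables were normalized separately, so these differences between tables were not tested, and how the cells were obtained cannot be told apart from the series of libraries.

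In the Lats2 libraries none of the 5 members was called, where 21.8% of 12451 genes were called. All 5 members passed the filter, and limma-voom on recovered reads called none of them. Across all genes 4805 had an unadjusted p under 0.05. With limma, the 2711 genes called depended strongly on which library was left out, in fits that leave 1 library in a group. With 2 libraries per group the intervals were wide.

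Gja4 was at 27.1 and 36.6 FPKM in Lats2 Cont and at 64.6 and 16.7 FPKM in Lats2 cKO. The first cKO library was above and the second below both controls. The log2FC was 0.068 (SE 0.61, 95% confidence interval -1.47 to 1.61, adjusted p = 0.945). Without cKO replicate 1 it was -0.88 (adjusted p = 0.0786), and without cKO replicate 2 it was 1.01 (adjusted p = 0.0793).

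Gja5 followed the same split, at 7.49 and 9.98 FPKM in Lats2 Cont and 17.7 and 6.85 FPKM in Lats2 cKO (log2FC 0.33, SE 0.42, adjusted p = 0.605). Bmx was at 1.75 and 1.85 FPKM in Lats2 Cont and at 1.80 and 0.520 FPKM in Lats2 cKO, the last resting on 8 reads (log2FC -0.44, SE 0.35, adjusted p = 0.396). Thus Gja4, Gja5 and Bmx were each lower in the second cKO library than in the first, as was Gjc1, while Gja1 was higher. Of the genes tested, 12 of 17 on the arterial list, 5 of 6 on the venous list and 48.8% of all were higher in the first cKO library. Gja4 and Gja5 were over 2-fold higher in the first, which held for 2.1% of all genes tested. Aplnr, at 644.1 and 296.0 FPKM, split in the same direction, and Cxcr4, at 18.5 and 43.4 FPKM, in the opposite one.

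Gja1 was at 105.9 and 104.6 FPKM in Lats2 Cont and at 126.9 and 166.1 FPKM in Lats2 cKO. Both cKO libraries were above both controls, and groups without overlap were found for 68.2% of all genes tested in this small design. The log2FC was 0.46 (SE 0.16, adjusted p = 0.101). Without cKO replicate 1 it was 0.65 and called (adjusted p = 0.0314), with the lone library assumed to vary like the others. Gjc1 was at 5.70 and 4.87 FPKM in Lats2 Cont and at 7.52 and 7.15 FPKM in Lats2 cKO, without overlap (log2FC 0.41, SE 0.15, adjusted p = 0.109).

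Other genes of the lists did pass the test here, where 11.8% of all genes tested were called higher and 9.98% lower. Of 6 connexin-binding genes tested, 4 rose, among them Cav1, the main caveolin gene (2.06), Nov, a matricellular protein gene (1.14), and Dbn1 (0.57), with adjusted p from 0.0113 to 0.0281. Of 17 arterial genes 5 rose and none fell, with a median of 0.47 beside -0.0031 over all genes, and Efnb2 was at 20.1 and 21.0 FPKM against 25.8 and 16.9 FPKM. These 5 were Cxcr4, a chemokine receptor gene (2.27), the elastin gene Eln (1.70), the netrin receptor gene Unc5b (0.94), the Notch ligand gene Jag2 (0.72) and the transcription factor gene Sox17 (0.71). Of 6 venous genes, Selp (-1.71), Nr2f2 (-1.23) and Ephb4 (-0.77) fell and Vwf rose (2.25). Panx1 had a log2FC of 0.033 (adjusted p = 0.902), Tec, a Bmx relative, 1.07 (adjusted p = 0.0743), and Btk, which passed the filter through Lats2 Cont alone, -1.07 (adjusted p = 0.0363).

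Markers of other cells differed between the Lats2 groups too. The 12 listed mural genes summed to 477.7 to 567.4 FPKM in Lats2 Cont and 139.7 to 154.1 FPKM in Lats2 cKO. Most of the Lats2 Cont sum came from Kcnj8 and Abcc9, at means of 378.6 and 121.3 FPKM. Both were lower in Lats2 cKO (log2FC -2.47 and -2.54), while Acta2, Tagln and Rgs5 were higher (2.36, 1.92 and 1.53). The median log2FC of the 7 mural markers tested was 1.35, so the fall of the sum does not describe the list as a whole. All 5 B-cell markers tested, 3 of 8 myeloid, 1 of 5 megakaryocyte and 1 of 7 erythroid markers were lower, and the summed erythroid level was 2436 to 3670 FPKM against 242.6 to 1395 FPKM. Pecam1 of the endothelial list, Spp1 of 6 osteoblast markers and 2 of 5 stromal markers were higher, and the 1 chondrocyte marker tested was not called. The part of these in the levels of the connexins and Bmx was not tested.

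Across all 16 libraries, the genes whose patterns lay closest to those of Gja1, Gja4 and Gja5 were found by the mean absolute difference of log2(FPKM + 1), centred on each comparison, among 4946 or 4947 genes with at least 5 FPKM in each. For Gja5 the closest was Gja4 (0.23), followed by Olfml2a (0.30) and Serpinf1 (0.31), where the median gene differed by 0.69. Closest to Gja4 were Aplnr (0.21), Olfml2a (0.22) and Podxl (0.28), with a median of 0.65. The log2FCs of these neighbors in bmECs were -2.03, -1.86 and -1.77, beside -2.20 for Gja4. In Lats2 cKO they were -0.65, -0.15 and 0.69, beside 0.068 for Gja4, and none was called there. Gja1 was closest to Nfkbib (0.096), Nol10 (0.10) and Luzp1 (0.10), with a median of 0.23. The 16 points share depth and sort within each comparison, and the measure is a description.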

How the data were processed

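RNA from FACS-sorted bone ECs was sequenced in 16 libraries. Per the labels and methods, the authors prepared TruSeq Stranded Total RNA libraries, aligned both read ends to GRCm38 (TopHat), made gene counts (HTSeq 0.6.1) and ran DESeq2 on those counts, which are not used here. The deposited values are FPKM per gene and library, and neither the step that made them nor the strand option of HTSeq is given in the sources used here.

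Log2(FPKM + 1) was tested with limma 3.58.1 under R 4.3.3, with a mean-variance trend, in each comparison alone, leaving out genes whose mean was under 1 FPKM. P-values are two-sided and Benjamini-Hochberg adjusted over all genes tested. The procedure was tested on simulated data. Reads were recovered with GENCODE M21 lengths and each library's smallest step, and 62.4% to 70.0% of values up to 20 reads were whole to within 0.02 reads, against 4.0% by chance. For Gja5 they did not come out whole in the control and ECKO libraries, so its reads there are approximate. Depth limits low genes, and ranges of reads are given beside them. Of 21603 Ensembl identifiers, 21375 were matched to symbols. In the Lats2 table, 4 lines with repeated names were left out.

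The members, gene lists (connexins, pannexins, connexin-binding proteins, Tec kinases, arterial and venous genes, markers of other cell types), tests and alternatives were chosen with earlier results of these data known. Named genes are the members, the targeted genes, each tested connexin, pannexin and Tec kinase, the called genes with the 5 largest changes of the other vascular lists, the most abundant gene of a marker list, and the 3 closest patterns, apart from some genes that are not reported here. Further marker genes and genes of Lats2 libraries were named after their values were seen. Promoter sequences came from RefSeq GRCm38.p6, with 4 of 5 members matched. Python 3.11.15, pandas 2.3.3, numpy 2.4.6 and matplotlib 3.10.9 were used for tables and plots.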

Additional observations from a re-analysis of the deposited data

How the results depend on the processing

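The calls of Gja4, Gja5, Gjc1 and Bmx in bmECs, each lower, held under a pseudocount of 0.1, no filter, quantile, median and endothelial scaling, a fit without trend and limma-voom on recovered reads, an alternative chosen after seeing the data. The log2 fold change of Gjc1 was -2.77 at the pseudocount of 0.1 and -3.28 under limma-voom. At a minimum of 5 FPKM the count of called members was 2, because Gjc1 and Bmx were not tested. The log2 fold change of Gja1 in bmECs changed sign under quantile normalization (-0.11), median scaling (-0.0090), endothelial scaling (-0.027) and limma-voom (-0.19). Endothelial scaling shifted all genes by -0.36 in the Yap1/Taz and by -0.10 in the Lats2 comparison, where it gave Gja1 -0.25, Gja4 -0.20 and Gja5 -0.73 (1 member called) in libraries labelled ECKO and Gja4 -0.035 in Lats2 cKO. Limma-voom gave -0.17 for Gja4 in Lats2 cKO. The cause was not tested.

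With 1 library left out, the count of called members stayed at 4 in bmECs and 0 in the libraries labelled ECKO and went from 0 to 1 in Lats2 cKO. Log2 fold changes ranged from -0.11 to 0.069 for Gja1 in bmECs, from -0.068 to 0.34 for Gja1, from 0.040 to 0.28 for Gja4 and from -0.58 to -0.20 for Gja5 in ECKO, and, in Lats2 cKO, from 0.27 to 0.65 for Gja1, from -0.88 to 1.01 for Gja4, from -0.30 to 0.96 for Gja5 and from -0.88 to -0.00095 for Bmx, which was -1.11 under limma-voom. The genes called of all tested in libraries labelled ECKO were 148, and 17 without trend, 1 without the filter and 356 with limma-voom, and in Lats2 cKO 2711, and 1389 without the filter.

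Whether replicate numbers pair libraries was not settled. Same-number correlations of deviations from group means were 0.31, 0.088 and 0.10 for regions, where different-number values ran from -0.21 to 0.12. For Yap1/Taz they were -0.18, -0.12 and -0.16, where different-number values ran from -0.15 to 0.24. For Lats2 the value was 0.065, which cannot decide the question, since 2 libraries per group fix all such values to 1 size. With the number as a replicate block, 4, 0 and 0 members were called, the same as without it, and 3072, 45 and 2655 of all genes against 2682, 148 and 2711.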
